A study of Rattus norvegicus with 6 samples.

Results

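The 10 genes Tfrc, Tfr2, Steap3, Slc11a2, Snx3, Fth1, Ftl1, Slc40a1, Aco1 and Ireb2, which carry iron into the cell, store it, export it or sense it, were followed in rat bone marrow cells selected for c-kit. They were chosen by name, with earlier results of these data known, and all 10 were found among the 17172 genes and loci of the files. Cells came from 3 ACI rats given phenylhydrazine (PHZ) into the peritoneum at 100 mg/kg and from 3 ACI rats given phosphate-buffered saline (PBS) in its place. Both groups were killed 36 h after injection, at 6 to 8 weeks of age, and each library came from the pooled hind-leg marrow of 1 rat. PHZ oxidises haemoglobin and destroys circulating red cells, and c-kit is the stem cell factor receptor of progenitors and early erythroid cells. Cells were captured by a biotinylated antibody with streptavidin particles, a selection whose purity the labels do not state. Each group had 2 rats labelled female and 1 labelled male.

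Developing red cells take up most of the iron that the body uses each day. Iron arrives bound to transferrin, is taken in with the transferrin receptor, is reduced in the endosome and crosses the endosomal membrane through a divalent metal transporter. What is not used for haem is held in ferritin or leaves the cell through ferroportin. A pair of iron regulatory proteins binds stem-loops called iron-responsive elements when iron is scarce, which protects Tfrc mRNA from decay and holds back translation of ferritin and ferroportin mRNA. Only mRNA was measured here, so such translational control is outside what these values can show.

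The libraries held 13196249 to 19492793 expected counts, and all 10 genes passed the filter on low counts in the comparison of 13547 genes. Kit had 714 to 935 counts in PHZ libraries and 789 to 1097 in PBS libraries, while Cd34 had 1 to 5 counts in PHZ and 9 to 12 in PBS libraries, and globin genes took 8.95% to 20.9% of counts. PBS replicate 1 stood apart. The summed level of 8 macrophage markers was 1030 to 1516 CPM (counts scaled to library size) in PHZ libraries, against 3229 CPM in PBS replicate 1 and 1031 and 1084 CPM in the other PBS libraries. That of 5 stromal and endothelial markers was 19.3 to 44.0 CPM in PHZ libraries, against 540.4 CPM in PBS replicate 1 and 73.5 and 62.5 CPM in the others. Most of the stromal and endothelial sum in PBS replicate 1 was Cxcl12. The Y-linked genes Ddx3y and Eif2s3y went against the sex label in 3 libraries: they had 2136 counts in PHZ replicate 3 and 3297 in PBS replicate 1, both labelled female, and 0 in PBS replicate 2, labelled male. They had 2486 counts in PHZ replicate 2 and 0 in PHZ replicate 1 and PBS replicate 3. By these genes sex was not balanced between the groups, and adjusting for sex as labelled cannot correct for that. The main results are therefore also given without PBS replicate 1 and without those 3 mismatched libraries.

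Levels are compared between genes as FPKM, fragments scaled to transcript length and library size, in which Ftl1 was 693-fold above Aco1 in PHZ libraries. In PHZ libraries the order of the means was Ftl1, Fth1, Tfrc, Snx3, Slc40a1, Steap3, Slc11a2, Tfr2, Ireb2 and Aco1, from 4018 ± 387 FPKM for Ftl1 to 5.80 ± 1.83 FPKM for Aco1 (SD, n = 3), and no neighbours in this order overlapped over the 3 libraries. In PBS libraries Snx3 stood above Tfrc in all 3 libraries, Tfrc and Slc40a1 overlapped, and Slc11a2, Steap3, Ireb2, Tfr2 and Aco1 each overlapped with the next in order. Together the 10 genes took 0.78% to 0.924% of all expected counts in PHZ libraries and 0.484% to 0.851% in PBS libraries.

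**Figure D1:**
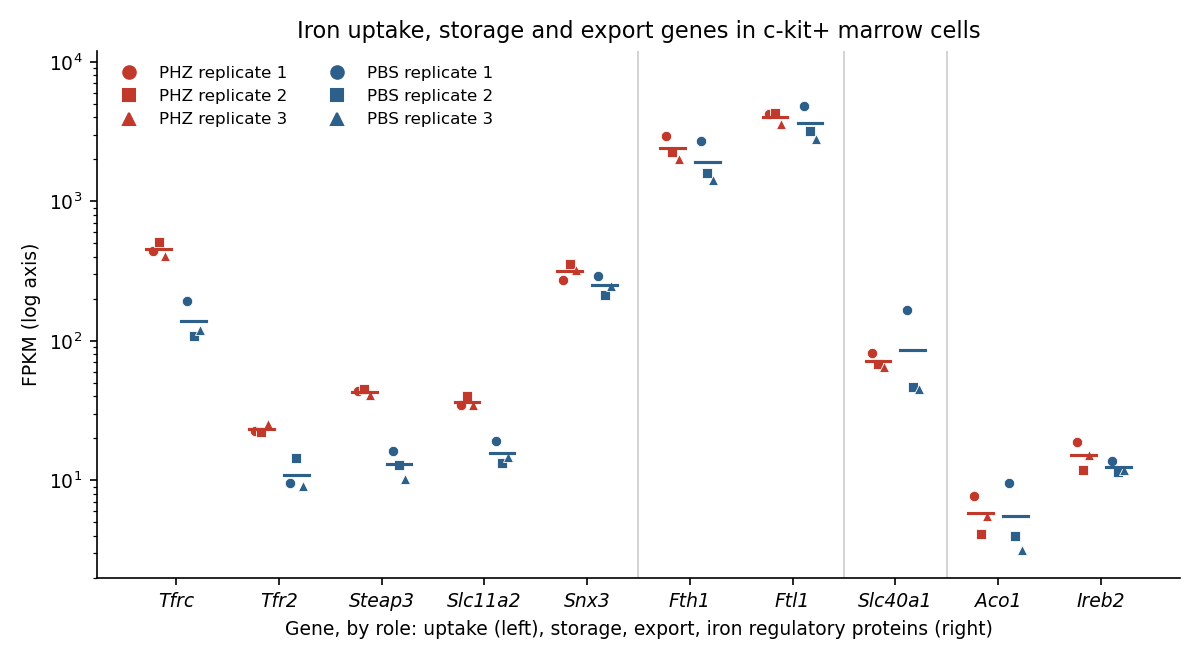
FPKM of each gene (log axis) in the 3 PHZ libraries (red, left of each pair) and the 3 PBS libraries (blue, right), with a line at each group's mean and the marker shape giving the replicate. Tfrc, Tfr2, Steap3 and Slc11a2 lay higher in every PHZ library than in any PBS library, while PBS replicate 1 (circle) was the highest library for Ftl1, Slc40a1 and Aco1.

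The comparison of PHZ with PBS asked which steps of iron handling differed in c-kit+ cells of rats with red cell destruction. Both transferrin receptor genes and the genes of the endosomal reductase and iron transporter rose after PHZ. Snx3 and the genes of storage, export and iron sensing did not pass the test. Of the 10 genes, 4 rose, 0 fell and 6 were not called, at an adjusted p under 0.05 by edgeR's quasi-likelihood test. Over all genes tested, 13.2% were called, 8.99% as higher and 4.17% as lower in PHZ. The 4 genes that rose were Steap3, Tfrc, Slc11a2 and Tfr2, out of 5 with a role in uptake. The median log2 fold change was 1.33 over those 5 genes and 0.40 over all 10, against -0.04 over all genes tested. In bulk RNA, more cells of a type and more mRNA per cell cannot be told apart.

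Tfrc encodes transferrin receptor 1, the main port of entry for iron-loaded transferrin in erythroid cells. Its level was 440.2, 507 and 409 FPKM in PHZ libraries, against 191, 108 and 119 FPKM in PBS libraries. The groups did not overlap, and the highest PBS library was replicate 1. On the CPM scale used for testing its mean was 2268 ± 448 in PHZ libraries, against 677 ± 201 in PBS libraries (SD, n = 3 each), a log2 fold change of 1.74 ± 0.27 (SE; edgeR adjusted p = 0.0212) or 3.35-fold.

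Steap3 encodes the ferrireductase of the transferrin endosome, which turns ferric into ferrous iron. It stood at 43.5, 45.2 and 41.0 FPKM in PHZ libraries and at 16.2, 12.97 and 10.3 FPKM in PBS libraries. In FPKM the PHZ libraries lay close together, with a coefficient of variation of 4.96%, against 22.6% among PBS libraries. They were less close on the CPM scale used for testing, at 116, 148 and 120 CPM. Mean CPM of Steap3 was 128 ± 17.2 in PHZ libraries, against 36.9 ± 6.53 in PBS libraries (SD, n = 3 each). Its log2 fold change of 1.79 ± 0.18 (SE; edgeR adjusted p = 0.0154) exceeded that of 99.2% of genes tested. Steap3 and Tfrc had the largest estimates of the 10 and did not keep an order between them, Tfrc being higher without PBS replicate 1, without PBS replicate 3 and in both limma fits on FPKM.

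Slc11a2 encodes DMT1, the transporter that carries ferrous iron out of the endosome. Its level was 34.4, 39.9 and 34.6 FPKM in PHZ libraries and 19.02, 13.4 and 14.6 FPKM in PBS libraries, without overlap. The log2 fold change was 1.33 ± 0.20 (SE; edgeR adjusted p = 0.0201), or 2.51-fold.

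Tfr2 encodes transferrin receptor 2, which binds iron-loaded transferrin and in mouse erythroid cells associates with the erythropoietin receptor. It had 22.6, 22.2 and 25.5 FPKM in PHZ libraries, against 9.56, 14.4 and 9.04 FPKM in PBS libraries. Here the highest PBS library was replicate 2, unlike Tfrc, Steap3 and Slc11a2, for which it was replicate 1. The log2 fold change was 1.15 ± 0.20 (SE; edgeR adjusted p = 0.0224), or 2.22-fold.

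Snx3 encodes a sorting nexin that, in mouse erythroid cells, returns the transferrin receptor from endosomes to the surface. It was the uptake gene that was not called, at 271, 357 and 323 FPKM in PHZ libraries and 293, 214 and 249 FPKM in PBS libraries. PHZ replicate 1 lay below PBS replicate 1, so the groups overlapped. The log2 fold change was 0.40 with a 95% interval of -0.12 to 0.93 (edgeR adjusted p = 0.241).

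The authors' deposited table marks the same 4 genes, Tfrc, Tfr2, Steap3 and Slc11a2, as up in PHZ, a mark that it gives to 3.18% of its genes, with 10.1% marked up or down. Every gene marked there has a log2 ratio beyond 1.00 in either direction. Snx3 and Fth1 carry no mark in the authors' deposited table, with log2 ratios of 0.33 and 0.34 and values of its score Probability of 0.974 and 0.938.

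The size of the 4 differences held when libraries were left out, while the calls depended on single libraries. Without PBS replicate 1 Tfrc, Tfr2, Steap3 and Slc11a2 were called, with log2 fold changes of 2.01, 1.05, 1.94 and 1.55. Without PBS replicate 2 the log2 fold changes were 1.58, 1.36, 1.77 and 1.22, and without PBS replicate 3 they were 1.69, 1.08, 1.69 and 1.24, in the same order. None of the 4 was called in either fit, although each had an unadjusted p under 0.05, and edgeR called no gene of the whole table there (3325 and 3291 at an unadjusted p under 0.05). Without PHZ replicate 2 only Steap3 of the 4 was called, at 1.68, with Tfrc at 1.57, Tfr2 at 1.12 and Slc11a2 at 1.24, and Tfr2 was lost without PHZ replicate 3, at 1.10 (edgeR adjusted p = 0.0594). Leaving out the 3 mismatched libraries keeps 2 PHZ libraries and 1 PBS library, whose spread is then assumed to be that of the PHZ libraries. The log2 fold changes there were 1.95 for Tfrc, 1.27 for Tfr2, 2.08 for Steap3 and 1.57 for Slc11a2. That fit called no gene of the table, so it is used for values only and not for calls.

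**Figure D2:**
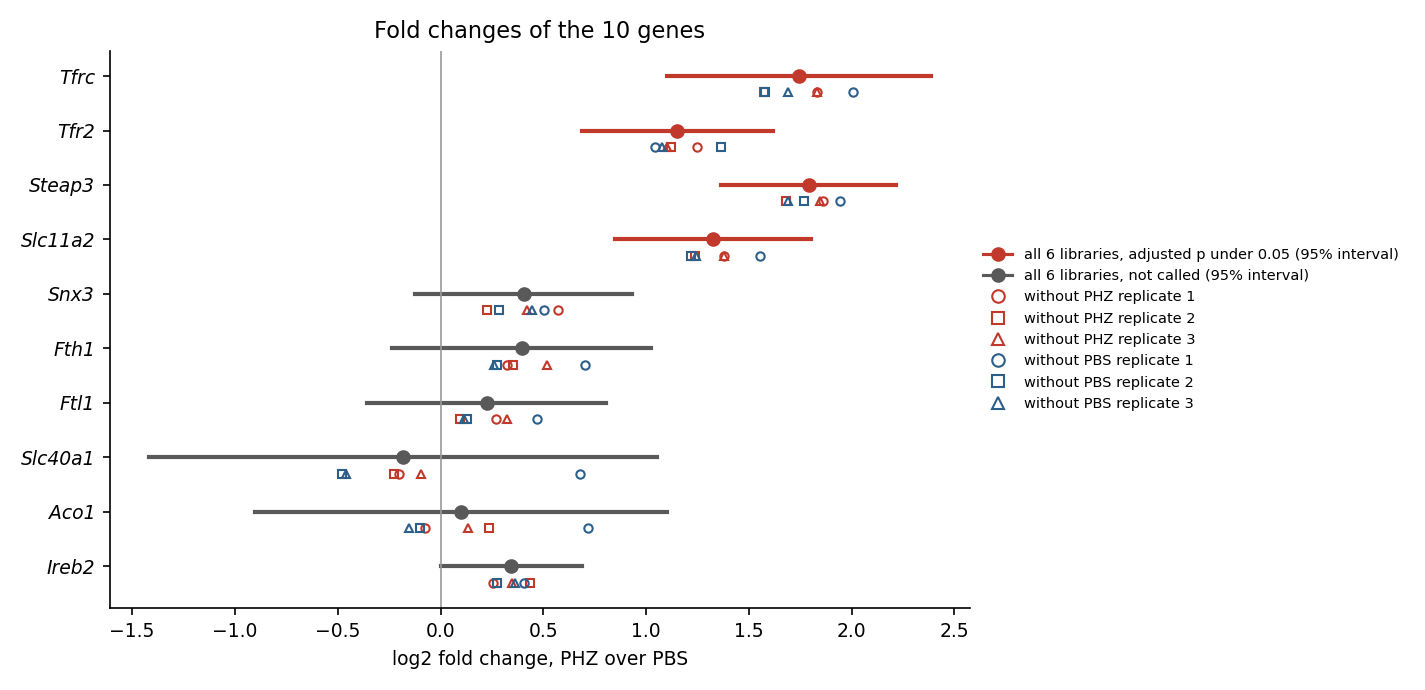
Log2 fold change of PHZ over PBS (horizontal axis) for each gene, as a filled point with its 95% interval from all 6 libraries, with open symbols beneath for the fits without 1 library each. The filled points of Tfrc, Steap3, Slc11a2 and Tfr2 lie between 1.15 and 1.79, and the estimate of Slc40a1 moves to 0.68 without PBS replicate 1.

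Some markers of the erythroid lineage were also higher in PHZ. Of 6 erythroid markers tested, 3 rose (50%, against 8.99% of all genes tested), 0 fell and 3 were not called, and each had counts in every library. Those that rose were the transcription factor genes Gata1 (log2 fold change 1.23; edgeR adjusted p = 0.0247) and Klf1 (1.48; edgeR adjusted p = 0.0218) and the ankyrin gene Ank1 (1.22; edgeR adjusted p = 0.0224). Epor, the erythropoietin receptor gene, Slc4a1, the band 3 anion exchanger gene, and Hba1, an alpha globin gene, were not called (edgeR adjusted p = 0.0792, 0.0537 and 0.808). Their log2 fold changes were 0.98, 0.98 and 0.20. All 6 erythroid estimates were above 0, and 5 had an unadjusted p under 0.05 by edgeR. Gata1 had 178, 309 and 209.7 CPM in PHZ libraries and 110.3, 89.9 and 97.2 CPM in PBS libraries, and PHZ replicate 2 was highest for it as for Tfrc, Steap3 and Slc11a2. The summed erythroid level ran from 63970 to 158300 CPM in PHZ and from 72820 to 145700 CPM in PBS libraries, most of it Hba1, so the groups overlapped. The part of the erythroid share of the cells in the rise of the uptake genes was not tested. Lymphoid markers moved the other way, with 4 of 5 B lineage and 4 of 5 T and NK markers called lower in PHZ by edgeR. That is 80% of each list, against 4.17% of all genes tested. The summed neutrophil level was 5004 to 8917 CPM in PHZ and 9798 to 23580 CPM in PBS libraries, most of it S100a8 and S100a9. Of 7 neutrophil markers tested, 0 were called by edgeR (2 at an unadjusted p under 0.05), and the groups overlapped for 6. Mpo had 639 to 1026 CPM in PHZ libraries, against 286 CPM in PBS replicate 1 and 1710 and 1662 CPM in the others. The summed mast cell and basophil level was 338 to 514 CPM in PHZ and 519 to 1046 CPM in PBS libraries. Of 5 mast cell and basophil markers tested, all 5 estimates were below 0. By edgeR 0 of these were called (1 at an unadjusted p under 0.05), and the groups overlapped for 4. The part of lymphoid, neutrophil, mast and basophil cells was likewise not tested.

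The promoters of Tfrc and Steap3, the uptake genes with the largest changes, are shown for reference as the 250 bases before the RefSeq transcript start on build GRCr8, 5′ to 3′ on the gene's strand. Capitals mark matches to any of 4 motifs searched on both strands of windows from 250 bases before to 50 after the start: the loop core of an iron-responsive element (a C, any 5 bases, CAGTG and any base), TGACNNNGC (the core of an antioxidant response element), ACGTG (the core of a hypoxia response element) and GATAA (for GATA factors). The motifs did not overlap each other in these windows.
Tfrc, chr11:81690319-81690568, minus strand: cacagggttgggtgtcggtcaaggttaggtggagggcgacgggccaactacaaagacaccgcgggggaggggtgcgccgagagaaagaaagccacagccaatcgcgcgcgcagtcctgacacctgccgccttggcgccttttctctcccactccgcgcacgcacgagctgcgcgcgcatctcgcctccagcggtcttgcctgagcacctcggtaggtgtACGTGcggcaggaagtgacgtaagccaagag
Steap3, chr13:33944357-33944606, minus strand: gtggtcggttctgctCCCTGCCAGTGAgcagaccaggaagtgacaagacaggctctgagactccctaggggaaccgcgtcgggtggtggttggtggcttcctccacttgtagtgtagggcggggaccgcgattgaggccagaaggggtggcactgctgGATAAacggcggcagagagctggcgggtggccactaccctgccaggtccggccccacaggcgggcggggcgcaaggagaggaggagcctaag

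Tfrc had 1 match, ACGTG beginning 31 bases before the start, a motif found in 19.3% of all 33469 promoter windows of this length. Steap3 had GATAA beginning 92 bases before the start (26.5% of windows) and a match to the iron-responsive element core 235 bases before it (18.3% of windows), which lies outside the transcript. The window of Snx3 held 3 matches, and those of Tfr2 and Slc11a2 held no match to the 4 motifs. Matches are descriptions of letters and were not tested for binding.

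Ferritin stores iron in a shell of heavy and light chains. Fth1, the heavy chain with ferroxidase activity, had 2923, 2274 and 2005 FPKM in PHZ libraries and 2690.4, 1605 and 1414 FPKM in PBS libraries. Ftl1, the light chain, had 4222, 4261 and 3571 FPKM in PHZ libraries and 4849, 3193 and 2804 FPKM in PBS libraries. For both genes PBS replicate 1 lay inside or above the PHZ range and the other PBS libraries lay below all PHZ libraries.

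The log2 fold change was 0.39 for Fth1, with a 95% interval of -0.23 to 1.02 (edgeR adjusted p = 0.326), and 0.22 for Ftl1, with a 95% interval of -0.36 to 0.80 (edgeR adjusted p = 0.546). Without PBS replicate 1 these were 0.70 (edgeR adjusted p = 0.0694) and 0.47 (edgeR adjusted p = 0.18), and without the 3 mismatched libraries 0.84 and 0.58, as values with no call. The transcripts of both chains together took 0.474% to 0.602% of expected counts in PHZ libraries and 0.359% to 0.639% in PBS libraries. Ferritin genes have near-identical processed copies in mammalian genomes, and how the authors' counting divided reads among copies is not known, so these levels are uncertain.

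The balance of heavy to light chain mRNA was compared within each library. The FPKM ratio of Fth1 over Ftl1 was 0.692, 0.534 and 0.561 in PHZ libraries and 0.555, 0.503 and 0.504 in PBS libraries, with means of 0.596 ± 0.085 and 0.521 ± 0.030 (SD, n = 3). The groups overlapped (exact two-sided permutation p = 0.2, the smallest possible with 3 against 3 being 0.1).

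Slc40a1 encodes ferroportin, the iron exporter, which is abundant in macrophages that recycle red cells and is also made by erythroid cells. It had 82.4, 68.4 and 65.1 FPKM in PHZ libraries, against 165, 46.9 and 44.96 FPKM in PBS libraries. PBS replicate 1 was 3.60 times the mean of the other PBS libraries, and those lay below all PHZ libraries. With all libraries the log2 fold change was -0.18, with a 95% interval of -1.42 to 1.05 (edgeR adjusted p = 0.825), and without PBS replicate 1 it was 0.68 (edgeR adjusted p = 0.0415). Without the 3 mismatched libraries, which leaves 1 PBS library and called no gene at all, it was 0.70.

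Macrophage markers were high in the same library. The scavenger receptor gene Cd163 had 262 to 315 CPM in PHZ libraries, against 628 CPM in PBS replicate 1 and 162 and 219 CPM in the other PBS libraries. C1qa, a complement component made by macrophages, had 224 to 245 CPM in PHZ libraries, against 711 CPM in PBS replicate 1 and 193 and 192 CPM in the other PBS libraries. Of 7 macrophage markers tested, 0 were called by edgeR (1 at an unadjusted p under 0.05), and Marco had at most 1 count in any library. With PBS replicate 1 included, all 7 estimates were below 0. Against the other PBS libraries, Cd163 and C1qa were higher in every PHZ library and Adgre1 was lower. The rest of the 7 overlapped. Adgre1 had 18.9 to 38.2 CPM in PHZ libraries, against 102 CPM in PBS replicate 1 and 38.8 and 40.6 CPM in the others. The part of macrophage RNA in the Slc40a1 values was not tested.

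**Figure D3:**
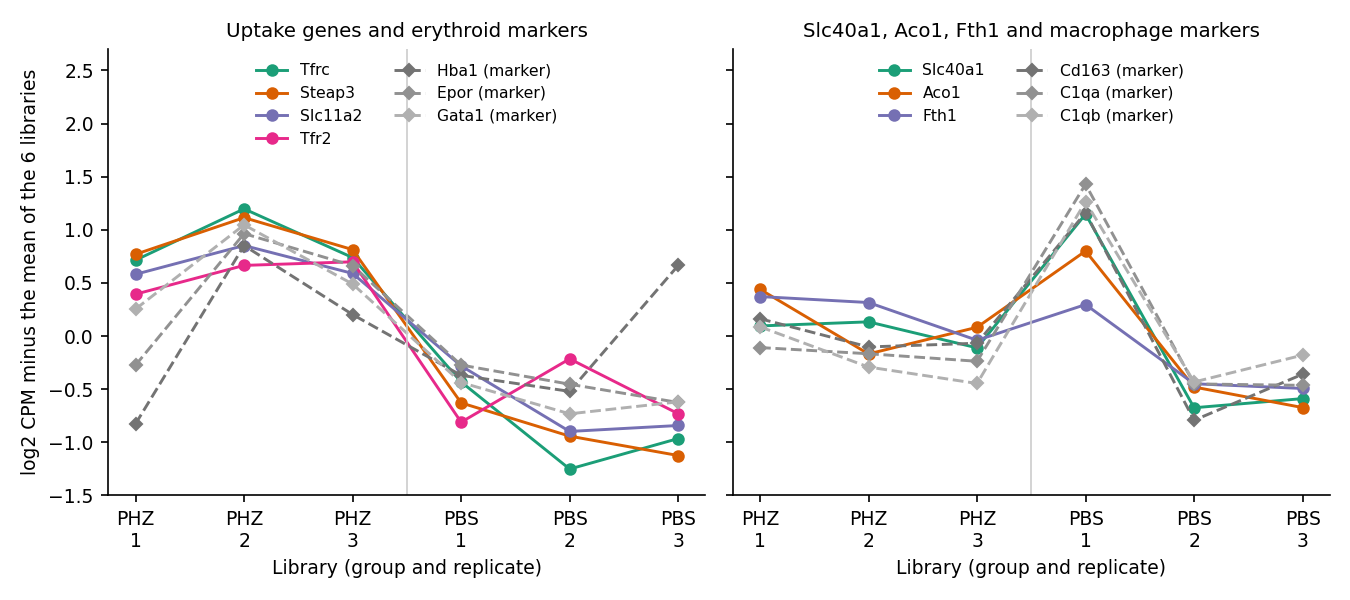
Log2 CPM minus the gene's mean over the 6 libraries (vertical axis), by library with PHZ left of PBS, for uptake genes with erythroid markers (left) and for Slc40a1, Aco1 and Fth1 with macrophage markers (right). Tfrc, Steap3, Slc11a2 and Tfr2 separate the groups, and PBS replicate 1 is the highest library for Slc40a1, Aco1, Cd163, C1qa and C1qb.

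Uptake was weighed against export within each library, a ratio that needs no scaling between libraries. Tfrc over Slc40a1 in FPKM was 5.34, 7.41 and 6.28 in PHZ libraries and 1.16, 2.30 and 2.66 in PBS libraries. All PHZ ratios lay above all PBS ratios, with means of 6.34 ± 1.04 and 2.04 ± 0.78 (SD, n = 3). The difference in mean log2 ratio was 1.71, or 3.28-fold (exact two-sided permutation p = 0.1, the smallest that 3 against 3 allows), and it was 1.35 without PBS replicate 1 and 1.24 without the 3 mismatched libraries. PBS replicate 1, high in macrophage markers, also had the lowest ratio.

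Tfrc over Tfr2 was 19.5, 22.8 and 16.03 in PHZ libraries and 20.0, 7.499 and 13.2 in PBS libraries. The groups overlapped (exact two-sided permutation p = 0.3), and the difference in mean log2 ratio of 0.62 moved to 0.24 without PBS replicate 2 and to 0.95 without PBS replicate 1. Whether the receptor genes differed in their rise was not settled by these libraries.

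**Figure D4:**
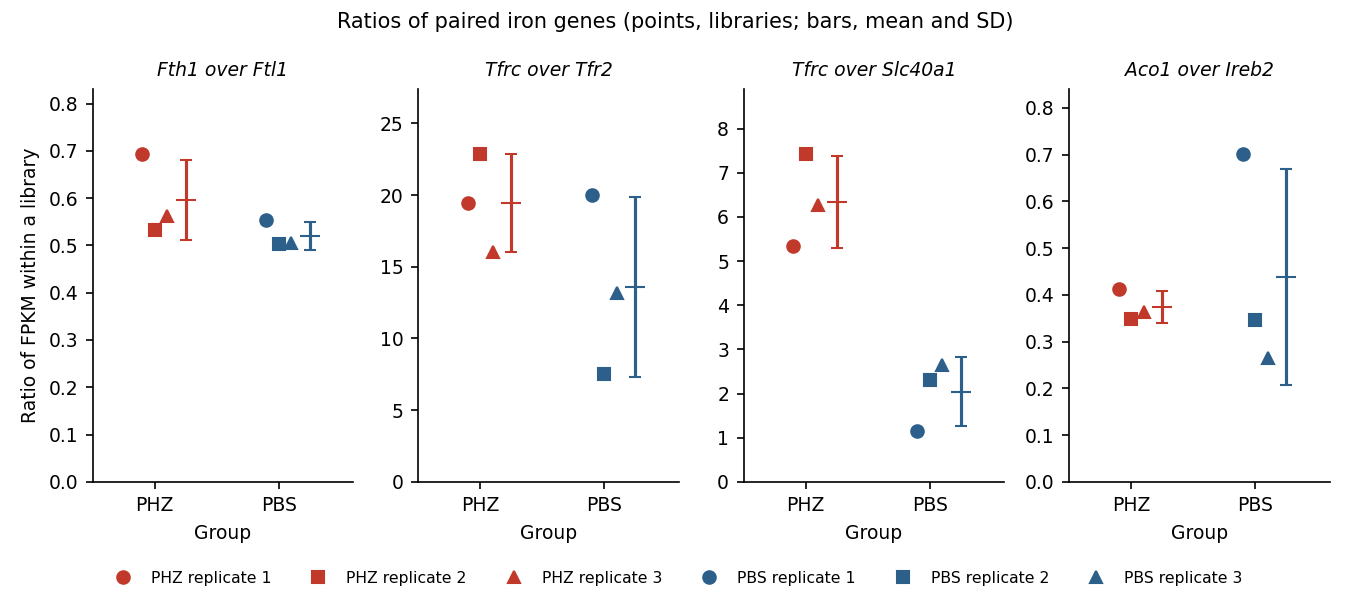
Ratio of FPKM within a library (vertical axis, from 0) for 4 pairs of genes, with PHZ left of PBS, 1 point per library, and bars for the mean and SD of each group. The Tfrc over Slc40a1 ratio separates the groups, at 5.34 to 7.41 in PHZ and 1.16 to 2.66 in PBS libraries, and the other ratios overlap.

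Aco1 and Ireb2 encode the iron regulatory proteins, of which the Aco1 product is also a cytosolic aconitase. Aco1 was the least abundant of the 10 genes, at 7.75, 4.13 and 5.52 FPKM in PHZ libraries and 9.64, 3.99 and 3.15 FPKM in PBS libraries. Like Slc40a1 it was highest in PBS replicate 1. Its log2 fold change was 0.10, with a 95% interval of -0.90 to 1.10 (edgeR adjusted p = 0.883), and 0.72 without that library (edgeR adjusted p = 0.0911). It was 0.84 without the 3 mismatched libraries, again a value with no call.

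Ireb2 had 18.8, 11.9 and 15.2 FPKM in PHZ libraries and 13.8, 11.5 and 11.9 FPKM in PBS libraries. In FPKM the groups overlapped, while in CPM all PHZ libraries (44.3 to 57.0) lay above all PBS libraries (35.9 to 43.1). In CPM this order held for 5 of the 10 genes, and over all genes tested it held for 22.5%, with 41.7% not overlapping in either direction. The log2 fold change was 0.34 ± 0.14 (SE; edgeR adjusted p = 0.146). The ratio of Aco1 over Ireb2 was 0.412, 0.348 and 0.362 in PHZ libraries and 0.700, 0.346 and 0.266 in PBS libraries (exact two-sided permutation p = 1). Its difference in mean log2 ratio was -0.10 with all libraries and 0.30 without PBS replicate 1.

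Other genes of iron handling were called about as often as genes in general. Of 37 further genes in 4 lists, 26 were tested, and of those 3 rose (11.5%, against 8.99% of all genes tested), 0 fell and 23 were not called, with a median log2 fold change of 0.09. Of these 26, 8 had all PHZ libraries above all PBS libraries and 4 below, against 22.5% and 19.2% of all genes tested. In the list of endocytosis, recycling and other iron uptake, 2 of 14 tested rose (14.3%). Picalm, a clathrin adaptor needed for transferrin receptor uptake in mouse erythroid cells, had a log2 fold change of 0.65 ± 0.16 (SE; edgeR adjusted p = 0.0465). Its mean CPM was 623 ± 55.1 in PHZ libraries, against 398 ± 56.3 in PBS libraries (SD, n = 3 each). Slc39a8, a metal ion transporter gene, had a mean CPM of 67.9 ± 11.6 in PHZ libraries, against 39.8 ± 1.499 in PBS libraries (SD, n = 3 each), and a log2 fold change of 0.77 ± 0.15 (SE; edgeR adjusted p = 0.0283).

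Cltc, the clathrin heavy chain gene, had a mean CPM of 494 ± 13.01 in PHZ libraries, against 287 ± 74.5 in PBS libraries, and was not called (SD, n = 3 each; edgeR adjusted p = 0.0502). Of the retromer subunits that sort receptors out of endosomes, Vps35, Vps26a and Vps29 had log2 fold changes of 0.42, 0.44 and 0.04 and none was called. Tf, the gene of transferrin itself, was the most abundant of this list, at 632.5, 738 and 858 FPKM in PHZ libraries and 792, 1781 and 1423 FPKM in PBS libraries. Its groups overlapped through PBS replicate 1 (log2 fold change -0.78; edgeR adjusted p = 0.152). Steap4, a relative of Steap3, had 4.13, 11.8 and 22.7 CPM in PHZ libraries, against 37.5, 29.99 and 33.1 CPM in PBS libraries. All PHZ libraries lay below all PBS libraries, and it was not called (log2 fold change -1.39; edgeR adjusted p = 0.14). Dnm2, Rab11a and Exoc6 had log2 fold changes of -0.09, -0.05 and 0.08.

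Of 3 tested genes of ferritin delivery and turnover, Herc2 rose and Pcbp2 and Ncoa4 were not called. Herc2, a ubiquitin ligase that acts on the ferritin receptor of autophagy, NCOA4, among other targets, had a mean CPM of 210.4 ± 9.65 in PHZ libraries, against 117 ± 7.40 in PBS libraries (SD, n = 3 each), and a log2 fold change of 0.85 ± 0.12 (SE; edgeR adjusted p = 0.0184). Mean CPM of Ncoa4 was 589 ± 96.8 in PHZ libraries, against 394 ± 134 in PBS libraries (SD, n = 3 each; edgeR adjusted p = 0.185).

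None of 3 tested genes of export and systemic control was called by edgeR, and 2 had an unadjusted p under 0.05. Their log2 fold changes were -0.94 for Heph and -2.08 for Cp, both ferroxidase genes, and -1.42 for Hfe (edgeR adjusted p = 0.126 to 0.309). PBS replicate 1 was the highest library for all 3. Cp had 3.31 to 4.37 CPM in PHZ libraries, against 37.2 CPM in PBS replicate 1 and 5.24 and 5.70 CPM in the other PBS libraries. Heph had 11.2 to 15.1 CPM in PHZ libraries, against 48.6 CPM in PBS replicate 1 and 10.9 and 12.8 CPM in the others, close to the PHZ values. Hfe had 1.06 to 2.07 CPM in PHZ libraries, against 7.78 CPM in PBS replicate 1 and 2.27 and 3.08 CPM in the others.

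Of 6 tested genes for turnover of the iron regulatory proteins or with an iron-responsive element of their own, 0 were called by edgeR (2 at an unadjusted p under 0.05). Skp1, a subunit of the ubiquitin ligase that Fbxl5 directs, had a log2 fold change of 0.50 (edgeR adjusted p = 0.0612). Fbxl5, whose product marks iron regulatory proteins for destruction when iron is plentiful, had a mean CPM of 76.2 ± 26.4 in PHZ libraries, against 116 ± 14.7 in PBS libraries (SD, n = 3 each; edgeR adjusted p = 0.145). Alas2, the erythroid enzyme that opens haem synthesis, has mRNA with an iron-responsive element, as ferritin does. Its log2 fold change was 0.25 (edgeR adjusted p = 0.658), with a 95% interval of -0.61 to 1.10. Of the 3 genes that rose outside the 10, all were lost without PBS replicate 2 and without PBS replicate 3, Slc39a8 was also lost without PHZ replicate 2, and Picalm was also lost without any 1 of the PHZ libraries. Over all 16 alternatives the call was lost in 13 for Picalm, in 8 for Slc39a8 and in 4 for Herc2, with the sign kept. Picalm was lost under RLE and upper-quartile scaling, with no filter, with sex as labelled and in both limma fits (adjusted p = 0.0511 to 0.112), and Slc39a8 with sex as labelled and in both limma fits (adjusted p = 0.0529 to 0.0608).

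**Figure D5:**
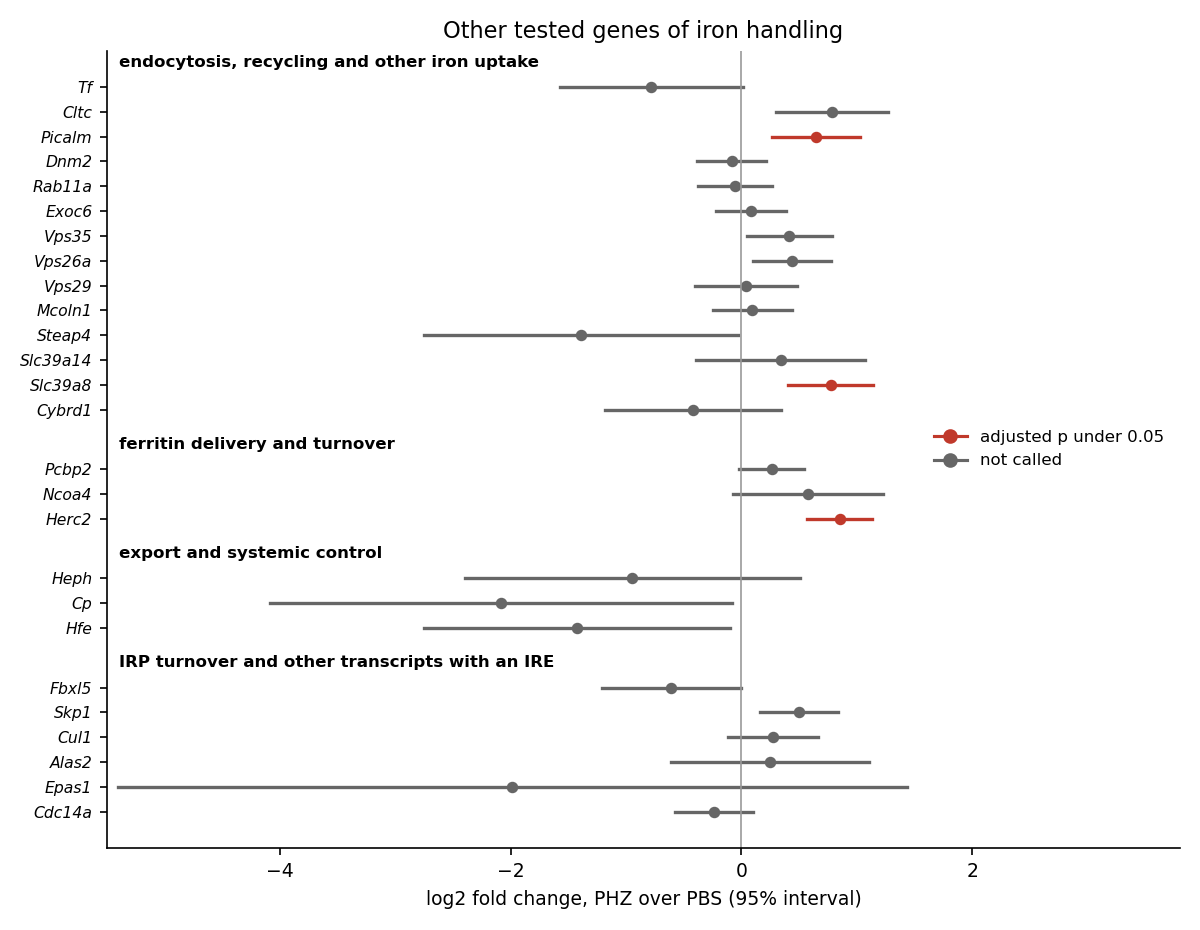
Log2 fold change of PHZ over PBS with its 95% interval (horizontal axis) for the 26 tested genes of the 4 further lists, red where the adjusted p was under 0.05. Picalm, Slc39a8 and Herc2 are red, with estimates between 0.65 and 0.85.

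The genes whose profiles over the 6 libraries lay nearest to that of Tfrc were Praf2, Cpox, Amn1, Mthfd2 and Tinagl1, with root mean square distances of 0.103 to 0.146 on the centred log2 CPM scale among 8701 candidates. Cpox is an enzyme of haem synthesis and Mthfd2 one of mitochondrial folate metabolism. Nearest to Slc40a1 were Cd5l, which encodes a protein secreted by macrophages, Klra17, Pld3, Rcan1 and Renbp, at distances of 0.0847 to 0.12. Cd5l had 94.1, 98.8 and 75.0 CPM in PHZ libraries and 214, 51.7 and 60.4 CPM in PBS libraries, with PBS replicate 1 highest as for Slc40a1. These genes were picked for their likeness in CPM, so a shared order is not a separate result.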

How the data were processed

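Poly(A) RNA of 6 rats was sequenced, 1 library per rat. The submitters' processing notes name the tools HISAT, RSEM and GATK and the rat build rn6; tool versions and settings were not given in the sources used here. For each library the authors deposited expected counts, which are estimates and not always whole, and FPKM values. A gene that a library does not list was set to 0. The authors' deposited table holds FPKM means of both groups, their log2 ratio (PHZ over PBS), and a score, Probability.

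Expected counts were rounded and tested by edgeR (version 4.0.16, R version 4.3.3) after filterByExpr and TMM scaling (robust glmQLFit, glmQLFTest, treatment as the only term, Benjamini-Hochberg adjustment over all 13547 genes). Standard errors divide the size of the log2 fold change by the root of the F statistic, and 95% intervals use edgeR's total degrees of freedom. CPM values are scaled by TMM, except summed marker levels, which are per library total. Ratios of FPKM were compared by exact permutation over libraries. The fits were tested on simulated data. A minimum share of true calls was required there of the edgeR and limma fits but not of DESeq2. A count of 0 allows up to 3 counts, or 0.154 to 0.227 CPM, for counting error only. Replicates differed by more than sampling noise (chi-square per degree of freedom 48.9 to 184), and p-values measure the spread between rats.

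The 10 genes and the gene lists were chosen with earlier results of these data known, and no p is adjusted over a list. The text names all 10 genes and, from the 4 pathway lists, the called genes or else the 2 most abundant. It names markers from the first 3 of the progenitor, erythroid, macrophage, neutrophil and stromal lists, and none from the other marker lists. For Tfrc and Slc40a1 it names the 5 nearest profiles among genes averaging at least 2 in log2 CPM. Tf, Pcbp2, Ncoa4, Hfe and Hamp are named outside these rules. Cltc, the retromer genes, Steap4, Dnm2, Rab11a, Exoc6, Fbxl5, Klf1, Ank1, Slc4a1, Marco, Adgre1, S100a8 and S100a9 were added after their values were seen. Of 37 pathway genes, 31 had a row matched by symbol or RefSeq name, and 1 further gene of these lists is not reported here. Promoter sequences are RefSeq's on GRCr8, for 8 of the 10 genes. Alternatives were DESeq2 1.42.0, limma 3.58.1 on log2(FPKM + 1) and log2(FPKM + 0.1), RLE and upper-quartile scaling, globin genes left out, no filter, a replicate block, sex as labelled, and libraries left out.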

Additional observations from a re-analysis of the deposited data

How the results depend on the processing

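Over 16 alternative fits, the 10 genes gave 160 estimates, of which 132 kept direction and call, 20 kept direction and lost the call, and 8 changed sign, all of them of Slc40a1 or Aco1. The estimate of Slc40a1 was 0.089 with a replicate block, 0.70 without the 3 libraries with mismatched sex, 0.022 and 0.025 with limma on log2(FPKM + 1) and log2(FPKM + 0.1), and -0.48 to 0.68 when 1 library was left out. Aco1 ran from -0.15 to 0.72 when 1 library was left out, with -0.07, -0.10 and -0.15 without PHZ replicate 1, PBS replicate 2 and PBS replicate 3. The Aco1 over Ireb2 ratio had a log2 difference of -0.40 to 0.30 when 1 library was left out and 0.51 without the 3 mismatched libraries.

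Of the 10 genes, 0 to 5 were called when 1 library was left out and 0 without the 3 libraries. Over all genes DESeq2 called 3469 (55.1% higher, against 68.3% with edgeR and TMM and 58.7% with upper-quartile scaling), sex as labelled left 928, leaving out 1 library gave 0 to 1744, and without the 3 libraries 0 were called (1480 at an unadjusted p under 0.05). Of the 26 tested pathway genes DESeq2 called 7, sex as labelled 1, each limma fit 1, leaving out 1 library 0 to 6, and leaving out the 3 libraries 0. Deviations of libraries that share a number correlated at 0.213, 0.0573 and 0.0045, and those of unlike numbers at -0.166 to 0.154. The numbers were not taken to pair rats, although so few libraries cannot exclude it. With the number as a replicate block edgeR called 0 genes in all (4641 at an unadjusted p under 0.05), 0 of the 10 (5) and 0 of the pathway genes (11). The cause of these shifts was not tested. Fewer libraries leave fewer degrees of freedom, from 4 with all 6, and the fit without the 3 libraries has 1 PBS library, so a lost call there says nothing of a result's stability.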

Other observations

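Slc11a2 is known to be made as several mRNA forms that differ at either end, some with and some without an iron-responsive element. The mean transcript length that the authors' files give for it, weighted by the abundance of its forms, was 3739.9, 3165 and 3421 bases in PHZ libraries and 3606, 3357 and 2902 bases in PBS libraries. The groups overlapped. Tfrc varied less, at 4865 to 4937 bases in PHZ libraries and 4967 to 5032 bases in PBS libraries, with all PHZ libraries below all PBS libraries. Whether the forms of either gene differed between the groups was not tested. The share of all genes whose lengths separated the groups was not computed.

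Hamp, the gene of the iron hormone hepcidin, did not pass the filter on low counts and averaged 0.67 FPKM in PHZ and 0.33 FPKM in PBS libraries. These means rest on 1, 5 and 4 counts in PHZ libraries and 0, 2 and 3 counts in PBS libraries. The groups overlapped, and no difference is read from them.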
